A study of Mus musculus with 20 samples.

Results

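The regions described here were accessible in mesenchyme without *Eed* and had no peak in control mesenchyme, in both the stomach and the intestine. They were chosen by the peak calls of 4 ATAC-seq lists, 1 each for the control intestine, the control stomach, the *Eed* KO intestine and the *Eed* KO stomach. Overlapping peaks of all lists were merged, and a merged region was kept when it held a peak from both *Eed* KO lists and from neither control list. This left 6769 of 162113 merged regions, or 4.18%. In what follows these are called the *Eed* KO-only regions.

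ATAC-seq cuts DNA where nucleosomes leave it exposed, so a peak marks open chromatin, often an enhancer or a promoter. Eed is a core subunit of Polycomb repressive complex 2 (PRC2), which places the repressive mark H3K27me3 on histone H3. PRC2 is known for keeping developmental regulators such as *Hox* genes silent where they are not needed, and loss of Eed destabilises the complex. In the gut, mesenchyme surrounds the epithelium, forms smooth muscle and stroma, and sends patterning signals.

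Cells were GFP+ mesenchyme sorted from the stomach or intestine of embryos at E13.5. The labels give the strain as C57BL/6, while the study's reporting summary gives mixed backgrounds for the *Eed* fl and *Rosa26mTmG* lines. Controls carried *Bapx1-cre* and the *Rosa26mTmG* reporter, and *Eed* KO embryos carried these alleles together with *Eed* fl/fl, so every group had the Cre and the reporter and deletion was limited to the cells that express *Bapx1-cre*. RNA-seq covered 2 libraries per organ and genotype. ATAC-seq also covered 2 per organ and genotype, but peaks were called on pooled replicates, so a peak has no replicate error and the depth behind the peak lists is unknown. Adult RNA-seq covered 2 libraries labelled WT and 2 labelled EED-KO of GFP+ small intestinal stroma, in which deletion was driven by the inducible *Pdgfrb-CreERT2*, not by *Bapx1-cre*. Per the study's methods both adult groups carried *Pdgfrb-CreERT2* and *Rosa26mTmG*, and the EED-KO also *Eed* fl/fl. For its adult analyses the study gave tamoxifen shortly before dissection.

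Embryonic RNA libraries held 30236159 to 39606157 counts on genes, and adult libraries 11404712 to 15903642. *Eed* stood at 38.1 and 40.1 CPM (counts scaled to library size) in the control intestine against 10.7 and 8.59 in the *Eed* KO intestine, and at 40.1 and 41.5 against 11.5 and 7.4 in the stomach, so the labels and the transcript went together in the embryo. In the adult libraries *Eed* was at 29.7 and 33.4 CPM in the WT and 25.7 and 25 in the EED-KO (log2 fold change -0.32, SE 0.21, adjusted p = 0.317 by edgeR). The study checked *Eed* deletion separately in isolated adult cells, a measure not used here. How far *Eed* was deleted cannot be read from counts over the whole gene. Mesenchymal marker genes summed to 13510 to 24808 CPM in the 8 embryonic libraries, and epithelial markers to 67.3 to 126.

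The following 6 sequences show the kinds of region that the results turn on, read from the plus strand of GRCm38, with bases of untranslated exons left out and long regions limited to their central 300 bases. Capitals mark short motifs searched on both strands: the E-box, spelled CAGCTG, the GC box, spelled CCGCCC, the motif of GATA factors, spelled AGATAA, that of posterior Hox and Cdx factors, spelled TTTATG, that of other homeodomain proteins, spelled TAATTA, and the AP-1 site, spelled TGACTCA or with a central G as TGAGTCA. The first is the region with the highest fold enrichment, at the start of *Gm13277* in the type I interferon cluster, and the second is the strongest region that has a single copy and lies far from any gene start. The next covers DNA before the start of *Palm3*, whose RNA was higher in both *Eed* KO organs. The last 3 lie close to genes of transcription factors that rose with *Eed* loss.
Start of *Gm13277*, chr4:88788488-88788693: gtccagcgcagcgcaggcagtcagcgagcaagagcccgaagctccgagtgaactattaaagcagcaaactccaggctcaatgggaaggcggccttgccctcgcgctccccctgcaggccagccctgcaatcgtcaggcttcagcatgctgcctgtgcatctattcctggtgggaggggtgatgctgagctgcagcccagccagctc
Far from any start, nearest to *Znhit6*, chr3:145439217-145439393: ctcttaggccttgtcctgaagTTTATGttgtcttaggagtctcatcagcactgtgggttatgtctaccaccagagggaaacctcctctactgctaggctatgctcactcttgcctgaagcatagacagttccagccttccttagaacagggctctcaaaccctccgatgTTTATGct
Before *Palm3*, chr8:84021312-84021470: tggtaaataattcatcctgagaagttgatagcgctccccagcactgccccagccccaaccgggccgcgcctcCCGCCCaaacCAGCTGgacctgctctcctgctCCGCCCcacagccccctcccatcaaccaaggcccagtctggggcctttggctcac
Before *Six3*, chr17:85612222-85612521: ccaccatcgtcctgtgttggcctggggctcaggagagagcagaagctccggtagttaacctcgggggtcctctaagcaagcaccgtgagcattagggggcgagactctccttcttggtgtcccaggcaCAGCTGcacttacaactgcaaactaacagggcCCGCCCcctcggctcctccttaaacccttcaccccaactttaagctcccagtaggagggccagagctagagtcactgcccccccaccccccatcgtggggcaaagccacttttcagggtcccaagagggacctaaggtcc
Between *Hoxc10* and *Hoxc9*, chr15:102972323-102972622: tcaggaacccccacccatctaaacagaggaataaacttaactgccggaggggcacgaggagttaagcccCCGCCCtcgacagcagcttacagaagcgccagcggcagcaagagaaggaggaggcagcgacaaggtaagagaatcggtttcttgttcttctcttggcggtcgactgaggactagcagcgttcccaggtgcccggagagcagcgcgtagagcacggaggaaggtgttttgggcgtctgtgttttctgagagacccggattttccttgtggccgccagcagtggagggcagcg
Near *Alx1*, chr10:103035286-103035585: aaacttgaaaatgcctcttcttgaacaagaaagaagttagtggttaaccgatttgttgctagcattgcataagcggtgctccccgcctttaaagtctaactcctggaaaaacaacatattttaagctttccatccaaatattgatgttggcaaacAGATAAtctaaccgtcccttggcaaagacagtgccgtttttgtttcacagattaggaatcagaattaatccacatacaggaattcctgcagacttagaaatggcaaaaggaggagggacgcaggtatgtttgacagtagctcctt
The *Palm3* stretch held 1 E-box and 2 GC boxes, the *Six3* stretch 1 of each, and the *Hoxc* stretch 1 GC box with 19 CpG sites. The *Znhit6* stretch held TTTATG in 2 places, and the *Gm13277* stretch held none of these letters. A match is a description of the letters and not evidence of binding.

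The *Eed* KO-only regions were few beside the regions common to all conditions. All 4 lists shared 74635 merged regions. The mirror class, with a peak in both control lists and in neither *Eed* KO list, held 3489. Each *Eed* KO list also had peaks of its own, with 13331 regions in the intestine alone and 11971 in the stomach alone, where the control lists had 6367 and 11860. The lists were of unequal size, with 103808 and 119181 peaks in the control and *Eed* KO intestine and 115789 and 116842 in the stomach. With 1 peak list per condition, these counts cannot be set against replicate error. The study itself counted reads over its consensus peaks and tested them with DESeq2 at its own thresholds. It reported that only a small share of regions changed in accessibility after *Eed* loss. Presence in a peak list, as used here, is a looser measure than that test.

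**Figure D1:**
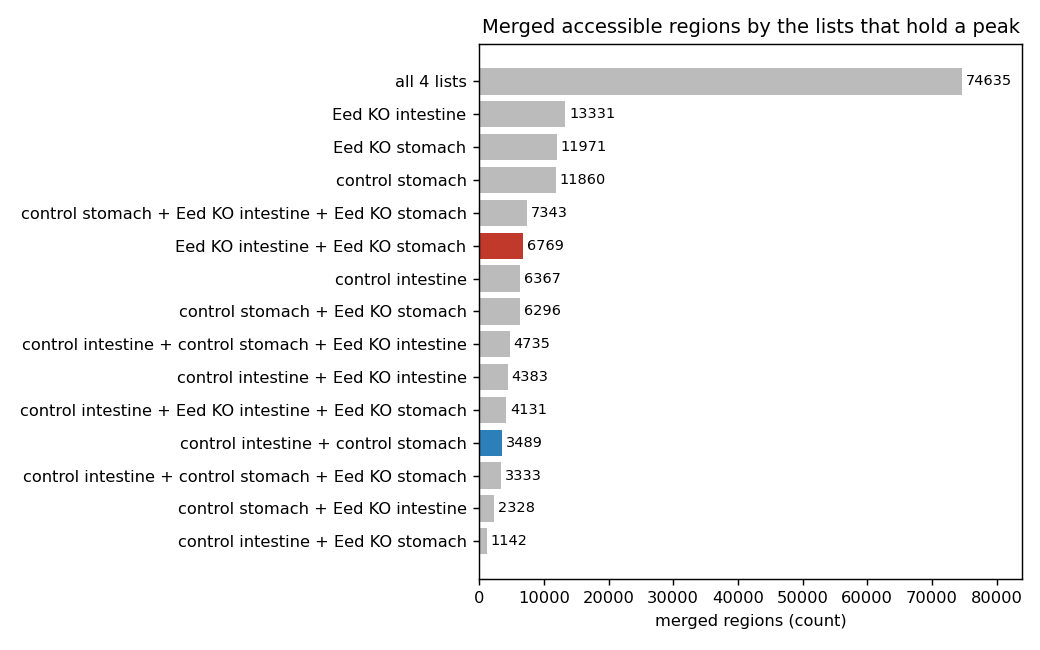
Merged accessible regions by the combination of peak lists that hold a peak, as counts on a linear axis. The red bar is the 6769 regions in both *Eed* KO lists alone and the blue bar the 3489 in both control lists alone, beside 74635 in all 4 lists.

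They were mostly short and weak. Their median width was 406 bp, with quartiles of 238 and 788 bp, against 1034 bp for regions in all 4 lists and 403 bp for the both-control class. The median fold enrichment over the MACS2 background was 2.86 in the *Eed* KO intestine and 2.99 in the *Eed* KO stomach, while regions in all 4 lists had medians of 4.28 and 4.42 there. The log2 fold enrichments of the 2 lists went together across the 6769 regions with r = 0.711, a description over regions that share libraries.

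Many members lay near the limit of the peak caller, which set the class. The weaker of the 2 *Eed* KO peaks had a -log10 q from 1.01, with a median of 2.08, and was under 2 in 3199 regions and at 5 or more in 880. The q cutoff in the study's methods equals a -log10 q of 2, and the deposited lists go below it. In those 3199 members at least 1 peak was therefore short of that cutoff. Just outside the class, 11474 regions had peaks in both *Eed* KO lists and in 1 control list. In 3695 of these the control peak had a -log10 q under 2, with the lowest at 1.01. The lower *Eed* KO fold enrichment had a median of 2.72 inside and 2.83 in those 11474 regions. The median distance from a member to the nearest control peak was 4.63 kb, and 196 members had a control peak within 1000 bp.

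*Eed* KO-only regions lay mainly within introns and between genes. Of the 6769, 3220 were intronic (47.6%), 2931 intergenic (43.3%), 301 exonic (4.45%) and 317 within 1000 bp of a gene start (4.68%, with a 95% Wilson interval of 4.21% to 5.21% for counting error only). Regions in all 4 lists were within 1000 bp of a start in 20.6% and both-control regions in 2.21%. The median distance to a protein-coding start was 44.2 kb, against 32.4 kb for regions in all 4 lists and 70.4 kb for both-control regions. They were spread over the genome, making up 3.01% of merged regions on chromosome X and 3.75% to 4.81% on the autosomes. Another member lay within 10 kb of 9.13% of them, and within 100 kb of 55.8%, against 6.22% and 37.9% in the smaller both-control class.

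Base composition was close to that of shared regions. The median GC content was 50.2%, equal to that of regions in all 4 lists and above the 46.4% of both-control regions. The CpG ratio, observed over expected, had a median of 0.202 against 0.271 in all 4 lists, so most members were not CpG-rich. A GC box stood within the central 300 bp of 8.86% of members, 11.6% of all merged regions and 3.96% of both-control regions. An E-box stood in 19.5%, 23.0% and 31.2%, and a GATA motif in 16.4% of members and 14.1% of all merged regions. AP-1 letters stood in 6.9% of members and 6.49% of all merged regions, TAATTA in 5.3% and 5.72%, and TTTATG in 16.8% and 16.7%.

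The strongest *Eed* KO-only regions lay in an array of interferon genes. Of the 10 members with the highest fold enrichment, taken as the lower value of the *Eed* KO lists, 4 lay in the type I interferon cluster of chromosome 4, a tandem array of interferon genes. The strongest, chr4:88788488-88788693, had a fold enrichment of 21.6 in the *Eed* KO intestine and 24.6 in the *Eed* KO stomach and spans the start of *Gm13277*, a predicted gene of the array. Next came chr4:88794111-88794585, with 11.5 and 12.5, at the starts of *Gm26525* and *Gm13275*. Further members at *Gm13288* (8.82 and 11.3) and *Gm13286* (7.75 and 8.03) stood in the same array. The stretch of chromosome 4 around it held 7 members within 78.6 kb. The first of them lay 5009 bp from the start of *Klhl9*. Of the 13 merged regions in the stretch, 3 had peaks in all 4 lists and none had control peaks alone. Those 3 were nearest to *Gm26566* or *Gm13274*, on the *Klhl9* side of *Gm13286*. Across all 6769 members only 44 exceeded a fold enrichment of 6 in both lists.

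Of these 4 regions, all but the one at *Gm13286* had near-identical copies beside them. The 206 bp at *Gm13277* matched 14 places in GRCm38 at 98.1% identity or more over at least 80% of their length, all of them on chromosome 4 within 45.6 kb and with a median step of 2.93 kb. Of these 14 copies, 5 touched a member, 1 touched a region with a control peak and 8 touched no region. Reads from near-identical copies cannot be placed with certainty. The part that this played in the peak calls was not tested. RNA counts of the array genes named here were near 0 in the embryonic libraries. *Gm13277*, *Gm26525*, *Gm13275* and *Ifnz*, which encodes an interferon, had 0 counts in each of the 8 embryonic libraries, and *Gm13288* had 2 counts in all. The limit on placing reads from near-identical copies holds for RNA reads too. Such low counts therefore do not show that the genes were silent.

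Further strong members lay on chromosomes 12 and 7. On chromosome 12, chr12:23009464-23010755 covered the start of the long noncoding RNA *2410018L13Rik* with fold enrichments of 7.84 and 10.2, and chr12:22905879-22906864 reached 8.76 and 9.77. Their further copies, 4 and 2 in number at 96.1% to 97.0% identity, all touched regions with a control peak. The stretch of chromosome 12 around them held 3 regions with peaks in both control lists alone. *2410018L13Rik* itself had 305 and 230 counts in control against 312 and 321 in *Eed* KO intestine, and 239 and 257 against 292 and 293 in the stomach. Its log2 fold change was 0.09 in the intestine (adjusted p = 0.899) and 0.24 in the stomach (adjusted p = 0.371). On chromosome 7, chr7:39588509-39589135 at the pseudogene *Gm2058* reached 10.2 and 10.5 and had no second copy by the same search, and *Gm2058* had 4 to 16 counts per library. The other members among the 10 strongest were short regions with 1 copy. They lay 136815 bp from *Znhit6* (8.22 and 7.75), 4915 bp from *1700026D11Rik* (7.73 and 8.32) and 83417 bp from *Gm11892* (7.56 and 10.4).

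**Figure D2:**
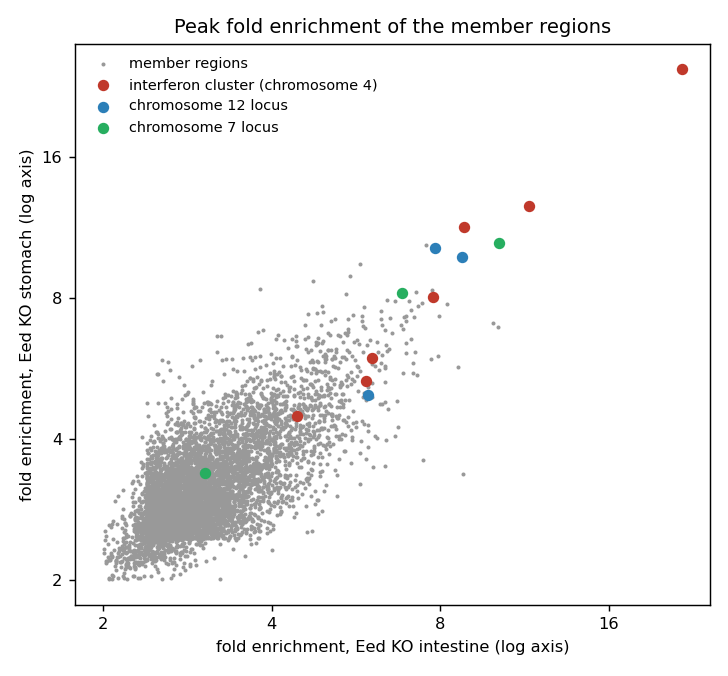
Fold enrichment of the 6769 member regions in the *Eed* KO intestine (x) and *Eed* KO stomach (y), both on log axes, each point a region. Coloured points are members in the stretch of chromosome 4 around the interferon genes and at the loci of chromosomes 12 and 7. They reach 21.6 and 24.6, where the median member stands at 2.86 and 2.99.

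Such copies were the exception in the class as a whole. A second copy at 95% identity or more was found for 105 of the 6769 members (1.55%) and for 45 of the 3489 both-control regions (1.29%). Among the 44 members over a fold of 6 it was found for 8 (18.2%), and among the 7 both-control regions over that fold for 2 (28.6%). The widest member, chr8:55357142-55361579, had 12 copies within 271 kb of chromosome 8 in steps of 3.31 kb, and lies 402414 bp from the nearest start, that of *Gpm6a*. The other very wide members had 1 copy. The one at chr14:70083840-70088182 (4343 bp) lies 6395 bp from *Egr3*, a zinc-finger factor of early growth response, and the one at chr1:86347048-86350868 (3821 bp) lies 433 bp from *Snora75* and close to the gene of nucleolin, *Ncl*. *Egr3* was at 4.87 and 2.88 CPM in the control stomach and 16.1 and 14.0 in the *Eed* KO stomach, and it rose by 1.96 on the log2 scale (SE 0.43, adjusted p = 0.0356). In the intestine it was at 3.76 and 1.35 against 4.7 and 6.33 CPM, which did not pass (adjusted p = 0.324).

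RNA was then used as a readout that had no part in choosing the regions. Genes were tested with edgeR's quasi-likelihood test in 1 fit of the 8 libraries, and a gene was called when its adjusted p was under 0.05 and its log2 fold change above 1 in size. Of 16218 genes tested, 2.38% were higher and 0.228% lower in the *Eed* KO intestine, and 4.84% were higher and 0.808% lower in the *Eed* KO stomach. The *Eed* KO effect differed between organs (adjusted p under 0.2) in 0.462%. In bulk samples fewer cells of a type and less RNA per cell cannot be told apart. Scaling to spike-in RNA moved the median gene up by 1.84 (intestine) and 2.39 (stomach) on the log2 scale, so every change here is relative to the typical gene.

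Few of the genes that start at an *Eed* KO-only region had enough RNA to be tested. A member lay within 1000 bp of the start of 340 genes, of which 153 were protein-coding. Of the 340, 141 (41.5%) had 0 counts in all 8 embryonic libraries, as had 41.4% of all genes with a position, and 70 (20.6%) passed the filter on low counts, against 37.5% of all 43276 genes with a position. Passing the filter can depend on the group in which a gene is high. Of the 70, 5 were higher and 1 lower in the *Eed* KO intestine, which is 7.14% higher, and 4 were higher and 2 lower in the *Eed* KO stomach, which is 5.71% higher. The median log2 fold change of the 70 was 0.08 in the intestine and 0.14 in the stomach, against 0.01 and 0.00 over all tested genes. None differed between organs by edgeR or DESeq2 at the threshold used, with 9 of the 70 at an unadjusted p under 0.05. With the replicate number as a block within each genotype 2 did, *Cldn2* and *Gimap8*. Without either control intestine library none of the 5 calls was left, and without the first or second *Eed* KO intestine library 2 or 1 genes passed. In the stomach 2 or 3 genes were higher, and none lower, when any 1 library was left out. Among both-control regions 81 genes had one at the start and 10 of these were tested.

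*Cdh5*, *Palm3* and *Bzrap1* were the genes with a member at the start that rose in both organs. *Cdh5*, which encodes VE-cadherin of endothelial junctions, was at 1.43 and 1.82 CPM in the control intestine against 10.7 and 11.9 after *Eed* loss. Stomach values were 0.493 and 0.433 CPM in controls and 3.92 and 8.17 in *Eed* KO. The genotypes did not overlap in either organ, and the log2 fold changes were 2.80 (SE 0.35, adjusted p = 0.00969) and 3.70 (SE 0.40, adjusted p = 0.0025) by edgeR. The member at *Cdh5* was weak, with fold enrichments of 2.30 and 2.18.

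Endothelial markers moved with *Cdh5*. Of 10 listed markers, *Cdh5* included, all were tested and 5 were higher in each organ, and their sum went from 23.7 and 28.4 CPM to 66.1 and 63.8 in the intestine and from 26.9 and 26.1 to 40.7 and 62.9 in the stomach. Their part in the result was not tested. Without either control intestine library the intestinal call of *Cdh5* was lost (adjusted p = 0.11 and 0.0742).

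*Palm3*, a member of the paralemmin family of membrane proteins, was at 2.95 and 3.9 CPM in the control intestine against 7.26 and 8.33 in *Eed* KO, and at 3.28 and 2.98 against 6.44 and 8.69 in the stomach. It rose by 1.19 (SE 0.22, adjusted p = 0.0353) and 1.27 (SE 0.22, adjusted p = 0.0158) on the log2 scale. *Bzrap1*, which encodes a RIM-binding protein of synapses, was at 1.4 and 1.75 CPM against 3.22 and 5.51 in the intestine and at 2.49 and 2.29 against 5.23 and 6.66 in the stomach. Its log2 fold changes were 1.47 (SE 0.30, adjusted p = 0.0497) and 1.31 (SE 0.29, adjusted p = 0.0354). Neither gene overlapped between genotypes. *Palm3* lost its stomach call without either control stomach library or the second *Eed* KO stomach library, and its intestinal call without any 1 intestinal library. *Bzrap1* lost its stomach call without any 1 stomach library and its intestinal call without any 1 intestinal library other than the first *Eed* KO library. With 1 RUVg factor, a spike-in covariate, *Palm3* had 0.89 (adjusted p = 0.15) in the intestine and 0.88 (adjusted p = 0.192) in the stomach. *Bzrap1* had 0.80 (adjusted p = 0.22) and 0.49 (adjusted p = 0.486). Neither was called, while *Cdh5* kept both calls. The factor was -0.408 to -0.195 in control libraries and 0.0476 to 0.539 in *Eed* KO libraries. It separates the genotypes, so fits with it cannot tell a technical shift from *Eed* loss.

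Other genes with a member at the start passed in a single organ. *Gimap8*, a GTPase gene of the immune-associated family, was called in the intestine on 1 and 1 counts against 18 and 16 and is uncertain at this depth. *Klk13*, a kallikrein protease, was at 3.68 and 6.66 CPM in the control intestine and 1.11 and 0.999 in *Eed* KO, and fell by 2.29 (SE 0.37, adjusted p = 0.0227). *Cldn2*, a pore-forming claudin of tight junctions, was at 2.64 and 3.21 CPM in the control stomach and 0.751 and 0.987 in *Eed* KO, and fell by 1.75 (SE 0.38, adjusted p = 0.0316). *Aox4*, an aldehyde oxidase, also fell in the stomach, by 1.67 (adjusted p = 0.0246), from 2.2 and 2.29 to 0.59 and 0.823 CPM. None of these organ differences passed the test of the difference without the replicate block, and with it those of *Cldn2* and *Gimap8* did. *Cldn2* lost the call without any 1 stomach library, and *Klk13* without 3 of the 4 intestinal libraries. With the RUVg factor neither was called (adjusted p = 0.0609 and 0.143).

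*Six3*, a homeobox gene of forebrain and eye development, was the only listed developmental gene with a member at the start to be called. It had 0 counts in all 4 control libraries, 2 and 3 in the *Eed* KO intestine, and 36 and 65 in the *Eed* KO stomach, which makes it at least 33.7-fold higher there against a floor of 3 counts over the control group (adjusted p = 0.0088, or 0.0657 with the RUVg factor). Its member, chr17:85611853-85612891, lies 717 bp before the start and was among the weakest, with fold enrichments of 2.07 and 2.01. *Barhl1*, the other listed gene with a member at the start, a homeobox gene of the nervous system, had 1 count in all libraries together. No *Hox* gene and no gene of 7 cell-cycle inhibitors had a member within 1000 bp of its start.

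**Figure D3:**
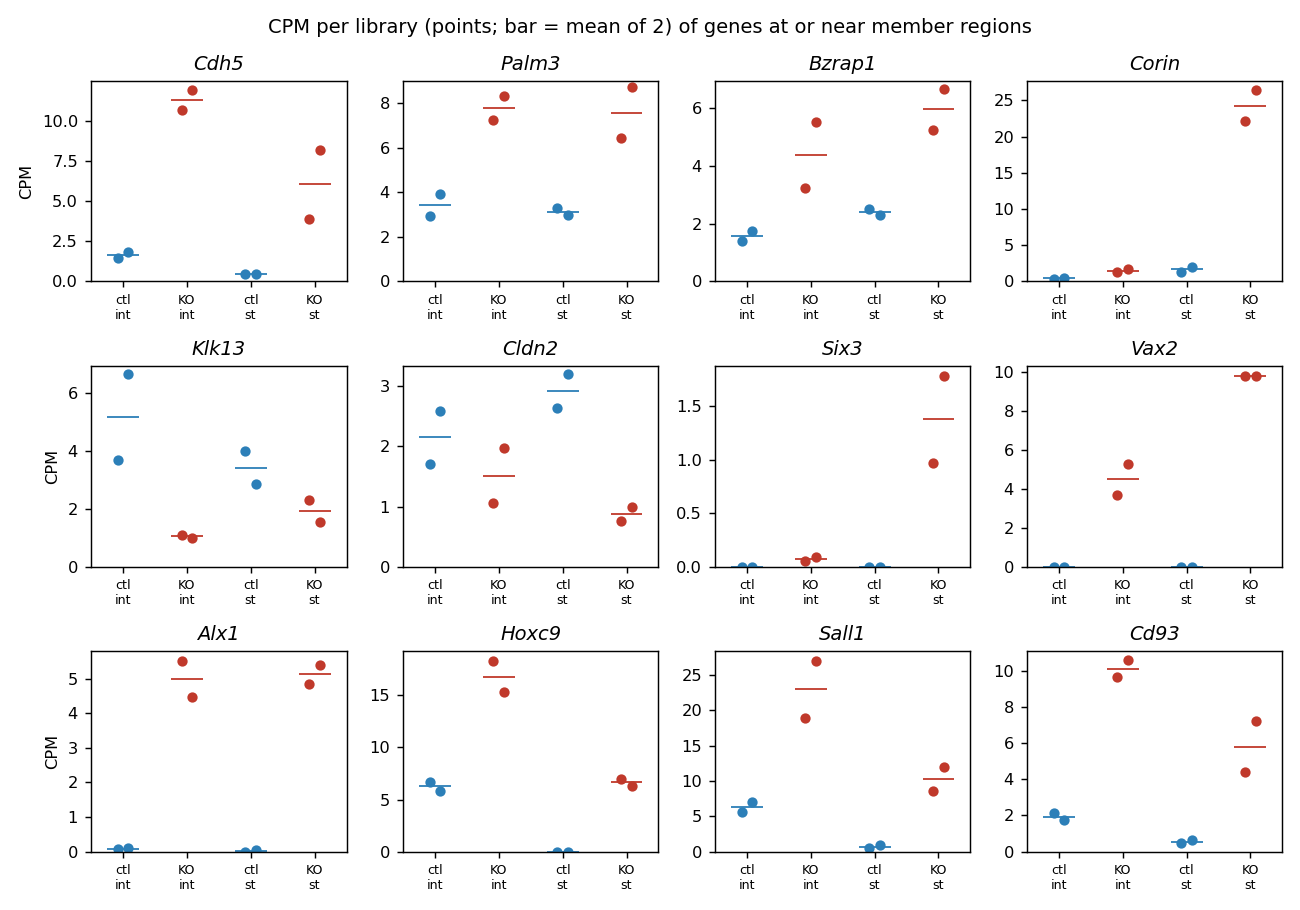
CPM in each library (points, with a bar at the mean of 2) for genes at or near member regions, in the control (blue) and *Eed* KO (red) intestine and stomach, each panel on its own linear axis from 0. *Cdh5* stands at 10.7 and 11.9 in the *Eed* KO intestine, and *Six3* and *Vax2* are at 0 in all controls.

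In the adult intestinal stroma the same genes were tested in a separate fit, in which 12.3% of 15039 genes were higher and 7.23% lower in the EED-KO. Of the 340 genes 63 were tested, and 9 were higher (14.3%) and 4 lower (6.35%), or 7 lower without the first EED-KO library. A member within 10 kb was found for 895 tested genes, of which 139 were higher (15.5%) and 52 lower (5.81%). The rises included *Fcgr2b*, an inhibitory Fc receptor, from 23.9 and 35.9 CPM to 873.8 and 700.1. *H2-DMb2*, which helps load MHC class II, went from 34.5 and 39.9 to 568.0 and 396.0 CPM, and *Blnk*, an adaptor of B-cell signalling, from 9.0 and 7.01 to 25 and 33.9. Macrophage and leukocyte markers moved with them, with 9 of 9 tested markers higher and a summed level of 698.4 and 978.5 CPM in the WT against 20040 and 18285 in the EED-KO. Mesenchymal markers summed to 11414 and 11921 CPM against 4989 and 3487. Their part in the result was not tested. *Hsd11b1*, which regenerates active glucocorticoid, was the most abundant of the lower genes, at 755.4 and 685.3 CPM against 269.8 and 339.0. *Cdh5* was not called in the adult, where it had a log2 fold change of 0.52 (adjusted p = 0.38).

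Genes that rose also had *Eed* KO-only regions at some distance from their starts. The window of 10 kb used next was chosen after the values were seen. A member lay within 10 kb of the start of 969 tested genes. Of these 42 were higher in the *Eed* KO intestine (4.33%) and 83 in the *Eed* KO stomach (8.57%), with 34 in both and 91 in either, while 3 and 7 were lower. Over all 16218 tested genes 386 and 785 were higher, with 296 in both and 875 in either, while 37 and 131 were lower. Both-control regions lay within 10 kb of 324 tested genes, of which 6 (1.85%) and 18 (5.56%) were higher. The median log2 fold change of the 969 was 0.06 in the intestine and 0.05 in the stomach, so most of these genes were near the typical gene.

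By distance, the share of genes higher in the *Eed* KO stomach was 5.71% of 70 at up to 1 kb, 10.1% of 276 from 1 to 5 kb, 8.19% of 623 from 5 to 10 kb, 7.19% of 1670 from 10 to 25 kb, 5.36% of 2315 from 25 to 50 kb, 4.26% of 3336 from 50 to 100 kb and 4.00% of 7901 beyond. In the intestine the shares in the same order were 7.14%, 3.62%, 4.33%, 3.53%, 2.81%, 1.71% and 2.06%. Around both-control regions the stomach shares from 1 kb outwards were 6.52%, 4.95%, 3.27%, 3.87%, 4.69% and 5.01%. Genes within 10 kb of a member had a median level of 9.92 CPM, against 18.9 CPM over all tested genes and 21.7 CPM within 10 kb of a both-control region, and the part that expression level played was not tested. The counts rested on few libraries. Without 1 of the control intestine libraries 5 or 7 genes passed in place of 42, and without a control stomach library 36 or 28 genes passed in place of 83. Leaving out the second *Eed* KO library gave 16 in the intestine and 33 in the stomach. With 1 spike-in factor (RUVg) as a covariate 13 and 20 passed, but that factor separates the genotypes.

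**Figure D4:**
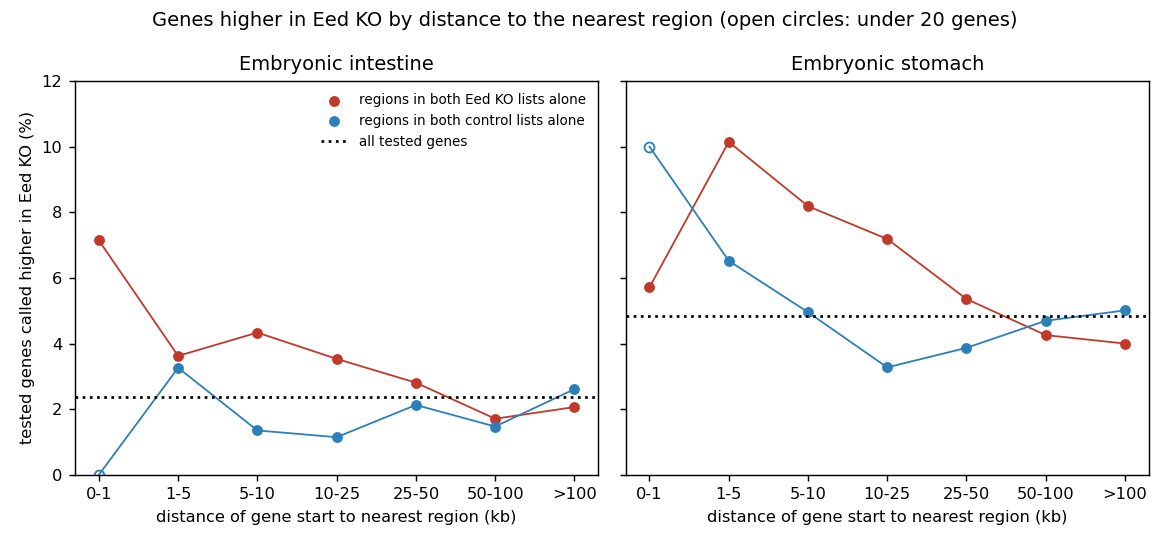
Share of tested genes called higher in *Eed* KO (y, %) by the distance from their start to the nearest region (x, kb), in the embryonic intestine and stomach, for *Eed* KO-only (red) and both-control (blue) regions, with open circles for bins under 20 genes and dotted lines at the share of all tested genes (2.38% and 4.84%). In the stomach the red share goes from 10.1% at 1 to 5 kb to 4.00% beyond 100 kb.

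The starts of the genes that rose near a member were mostly open in every condition. Of the 91 genes higher in an organ with a member within 10 kb, 77 (84.6%) had a region of all 4 lists within 1000 bp of the start, close to the 86.6% of all 875 genes higher in an organ. For these 77 genes the start was already open in controls, and the *Eed* KO-only region was a second site.

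Among 141 developmental transcription factor genes listed as typical PRC2 targets, a list made with earlier results of these data known, 16 (11.3%) had a member within 10 kb of the start, against 6.15% of all genes with a position. Both-control regions lay within 10 kb of 4. Of the 16, 12 were tested, and 7 were higher in the intestine and 9 in the stomach, with none lower. Over the whole list 48 and 73 of 104 tested genes were higher. *Isl2*, *Emx1* and *Wt1* did not pass in either organ, and *Lmx1a* passed in the stomach alone.

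*Vax2*, a homeobox gene of the ventral eye, had 0 counts in all 4 control libraries. *Eed* KO libraries held 139 and 185 counts (intestine) and 365 and 356 (stomach). This is at least 96.7-fold higher in the intestine (adjusted p = 0.0029) and at least 240.3-fold in the stomach (adjusted p = 0.000771). A member lies 5598 bp from its start, with fold enrichments of 2.27 and 2.11. *Alx1*, a homeobox gene of craniofacial mesenchyme, was at 0.0843 and 0.101 CPM in the control intestine against 5.51 and 4.48 in *Eed* KO, and rose by 5.71 (SE 0.43, adjusted p = 0.00138). In the stomach it had 0 and 2 counts against 181 and 197, a ratio of 189 with a 95% counting interval of 51.9 to 1566. *Dlx6*, a homeobox gene of jaw and limb, had 0 and 0 counts against 54 and 81 in the intestine and 0 and 1 against 35 and 26 in the stomach, and its member lies 6748 bp away.

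*Tbx18*, a T-box gene of epicardium and ureter mesenchyme, went from 0.59 and 1.25 CPM to 4.56 and 6.08 in the intestine and from 2.49 and 5.86 to 21.5 and 18.8 in the stomach (log2 fold changes 2.55 and 2.26, adjusted p = 0.0358 and 0.0185). *Msx1*, a target and effector of BMP signalling, rose by 2.05 (intestine) and 1.12 (stomach) (adjusted p = 0.0148 and 0.0339), with its member 1458 bp from the start. *Irx1*, of the Iroquois family, had 2 and 1 counts against 28 and 49 in the intestine and 17 and 6 against 68 and 66 in the stomach (adjusted p = 0.0261 and 0.0296). *Pax3*, a paired-box gene of neural crest and muscle precursors, had no count in control intestine libraries against 14 and 12 in *Eed* KO, with 0 and 2 against 32 and 33 in the stomach (adjusted p = 0.0407 and 0.0111).

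The *Hoxc* cluster held 5 members over 89.2 kb of chromosome 15. *Hox* genes set position along the body axis, and those at the 5′ end of a cluster act in posterior tissue. One lay 6605 bp from *Hoxc13*, one 4102 bp from *Hoxc12*, one between *Hoxc10* and *Hoxc9*, one 5506 bp from *Hoxc8* at the end of *Hoxc9*, and one further out beyond *Hoxc13*. Of 34 merged regions in the stretch 18 had peaks in all 4 lists, and these covered the starts of *Hoxc13*, *Hoxc10*, *Hoxc9* and *Hoxc8*. Fold enrichments of the 4 inner members were 2.35 to 3.34 in the *Eed* KO intestine and 3.32 to 4.00 in the *Eed* KO stomach.

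RNA of the 5′ *Hoxc* genes beside these members was at or near 0 in the control stomach and present in the *Eed* KO stomach. *Hoxc9* had 0 counts in both control stomach libraries and 259 and 231 in *Eed* KO, at least 163.3-fold higher (adjusted p = 0.000164), while in the intestine it went from 6.69 and 5.82 CPM to 18.3 and 15.3 (log2 fold change 1.42, adjusted p = 0.0118). *Hoxc10* had 0 counts in control stomach and 121 and 194 in *Eed* KO (adjusted p = 0.00164), and in the intestine stood at 5.28 and 3.13 against 13.7 and 12 CPM (adjusted p = 0.059). *Hoxc8* had 0 and 2 counts against 549 and 526 in the stomach. Its intestinal levels were 62.9 and 59.1 against 75.3 and 72.4 CPM (adjusted p = 0.502). *Hoxc13* had 0 counts in all controls, 21 and 17 in the *Eed* KO intestine and 73 and 94 in the *Eed* KO stomach (adjusted p = 0.0222 and 0.00266). *Hoxc12* had 0 counts in all controls and 28 and 85 in the *Eed* KO stomach (adjusted p = 0.0304).

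Not every *Hox* gene near a member rose. Of 39 *Hox* genes, 9 had a member within 10 kb (23.1%), of which 2 were higher and 2 lower in the intestine, and 5 higher and 3 lower in the stomach. Over all 39 the counts were 5 higher and 3 lower in the intestine and 19 higher and 6 lower in the stomach. *Hoxa4* fell by 1.85 (intestine) and 1.66 (stomach) (adjusted p = 0.00135 and 0.000926), from 39.3 and 32.6 CPM to 9.21 and 10.7 and from 31.0 and 31.8 to 10.3 and 9.57. *Hoxa5* fell by 1.13 and 1.32 (adjusted p = 0.0092 and 0.00236). *Hoxc5* fell by 1.32 in the stomach (adjusted p = 0.00292), from 44.1 and 39.9 to 18.7 and 15 CPM. It counts among the 9 only by its start in the GENCODE vM4 models, chr15:102967443, beside *Hoxc10* at 102966796. *Hoxc6* and *Hoxc4*, its neighbours by number, start at 102998257 and 103018934, so its nearness to the member between *Hoxc10* and *Hoxc9* is uncertain. *Hoxa4*, *Hoxa5* and *Hoxa6* share 1 member, with fold enrichments of 2.03 and 2.19.

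**Figure D5:**
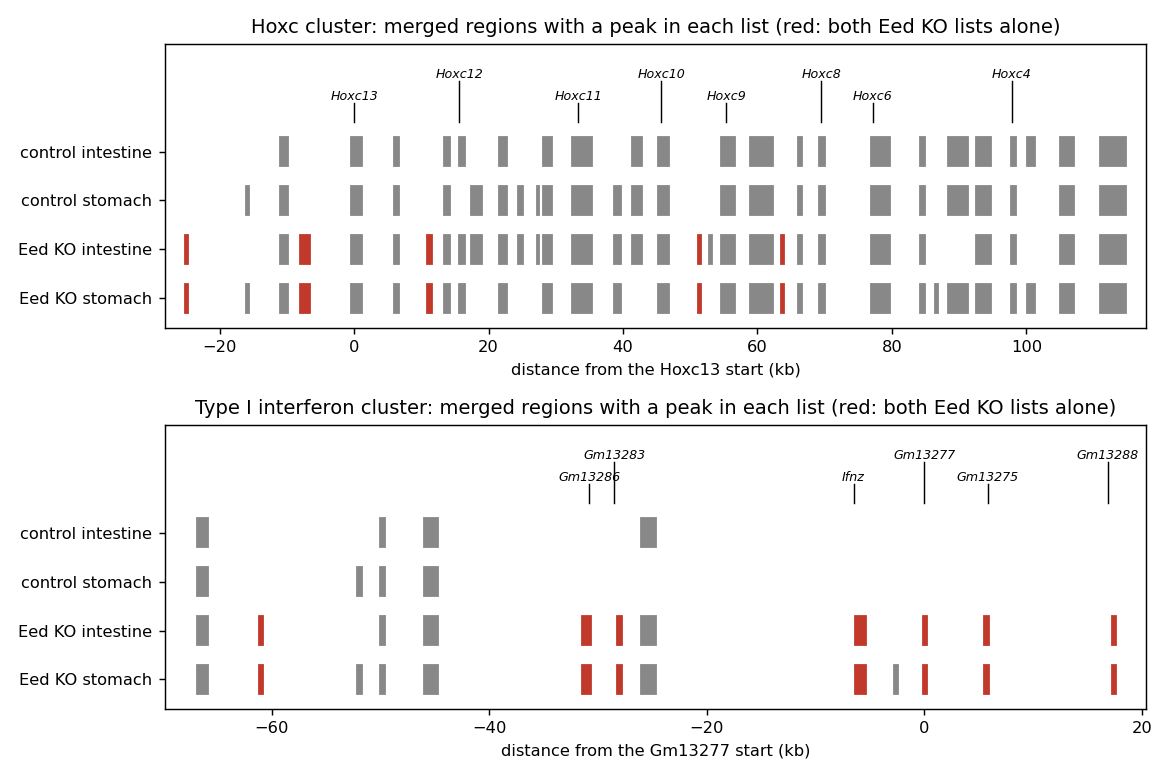
Merged regions with a peak in each list along the *Hoxc* cluster (top, x in kb from the *Hoxc13* start) and the type I interferon cluster (bottom, x in kb from the *Gm13277* start), drawn at least 0.4 kb wide, with gene starts above. Red marks regions in both *Eed* KO lists alone, 5 in the upper and 7 in the lower map, and grey all other patterns.

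Beyond single lists, 23 genes with a start 1 to 10 kb from a member rose in both organs, each averaging 1 CPM or more over the libraries, and their genotypes did not overlap. By the call alone, 31 of 899 tested genes at this distance were higher in both organs, against 296 of all 16218 tested genes. At this distance from a both-control region 5 of 314 were. The 23 genes were chosen after the values were seen. *Sall1*, a zinc-finger repressor of kidney and limb development, went from 5.56 and 7.07 CPM to 19.0 and 27 in the intestine and from 0.493 and 0.892 to 8.53 and 12 in the stomach (log2 fold changes 1.87 and 3.87, adjusted p = 0.0183 and 0.00118). Its member, 6428 bp away, was stronger than most, with fold enrichments of 4.03 and 5.41. *Zc3hav1*, the zinc-finger antiviral protein, went from 2.30 and 2.73 CPM to 13.9 and 19.7 and from 2.99 and 3.54 to 21.5 and 28 (2.74 and 2.92, adjusted p = 0.00254 and 0.000771). *Sp6*, a factor of tooth and limb epithelium, rose by 2.15 and 3.31 (adjusted p = 0.0265 and 0.00347), and *Wnt6*, which encodes a Wnt ligand, by 2.14 and 1.41 (adjusted p = 0.0328 and 0.0465). The member near *Wnt6*, 8376 bp from its start, had fold enrichments of 5.37 and 6.45.

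*Corin*, a serine protease that activates natriuretic peptide, went from 0.393 and 0.471 CPM to 1.35 and 1.65 in the intestine and from 1.36 and 1.96 to 22.1 and 26.4 in the stomach (1.79 and 3.86, adjusted p = 0.0218 and 0.00026), and its member lies 1404 bp from the start.

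Endothelial genes stood among these as well. *Cd93*, a receptor of endothelium and myeloid cells, was at 2.14 and 1.75 CPM against 9.66 and 10.6 in the intestine and at 0.464 and 0.637 against 4.37 and 7.21 in the stomach (log2 fold changes 2.37 and 3.38, adjusted p = 0.00778 and 0.00139). *Vwf*, von Willebrand factor, was at 0.73 and 0.673 against 2.32 and 4.14 CPM and at 0.551 and 0.459 against 1.69 and 3.26 (2.19 and 2.29, adjusted p = 0.0416 and 0.0224). Neither had a region of all 4 lists within 1000 bp of its start. For *Cd93* the nearest one lay 20952 bp away. Both stand beside the rise of the endothelial marker list given with *Cdh5*.

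The genes that hold the most members were long in the gene models used. *Gm20388*, annotated over 4435 kb, had 21 in its body or within 10 kb, *Fgfr2* 16 over an annotated 2961 kb, and *RP24-559D1.1* 9 over 1391 kb. These spans are those of GENCODE vM4. A model drawn too long would inflate its count, so members in a span need not belong to that gene. *Cdh13* and *Cdh4*, which encode cadherins of neurons and vessels, had 8 each. *Clstn2* and *Nav2* also had 8 and were left out of the 5 by alphabetical order alone. Per 100 kb the 5 genes kept, in the order given, came to 0.471, 0.537, 0.638, 0.754 and 1.68 members. *Fgfr2*, a receptor for fibroblast growth factors, was at 129.7 and 116.0 CPM in the *Eed* KO stomach against 183.9 and 206.3 in controls, and its log2 fold change of -0.67 (adjusted p = 0.023) stayed under the size required for a call. *Cdh13* rose by 1.22 in the stomach (SE 0.24, adjusted p = 0.024), from 4.38 and 4.74 CPM to 8.02 and 13.3, and had a log2 fold change of 0.08 in the intestine (adjusted p = 0.952). *Cdh4* did not pass in either organ.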

How the data were processed

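RNA-seq counts per gene and ATAC-seq broad peaks were used as deposited by the authors. Per the labels and the study's methods, reads were trimmed with Trimmomatic 0.32, RNA was aligned with STAR 2.5.1b and counted with featureCounts on GENCODE gene models, and ATAC reads were aligned to mm10 with BWA 0.7.8. The authors called broad peaks with MACS2 2.1.2 on pooled replicates and deposited each peak's fold enrichment, a ratio over the local background, and its -log10 p and q values. SIRV and ERCC spike-in rows were kept out of library sizes.

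Peaks were merged with bedtools 2.31.1 at 1 bp of overlap, and placed against GENCODE vM4 gene starts. Second copies were searched with blastn 2.17.0 in GRCm38 (95% identity over 80% of the region). Genes were tested with edgeR 4.0.16 (quasi-likelihood, TMM, filterByExpr, Benjamini-Hochberg adjustment), the 8 embryonic libraries in 1 fit of 4 group means and the 4 adult libraries in another. CPM use TMM-scaled library sizes. A fold against a group at 0 was taken against a floor of 3 counts, and ratios of low counts carry exact 95% intervals, which cover counting error only. DESeq2 1.42.0, no filter, spike-in scaling, 1 RUVg factor, a replicate block, left-out libraries, stricter peaks and other windows were alternatives. The test code was tested on simulated data.

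The members, gene lists and tests were chosen with earlier results of these data known. Genes were named when a member lay at the start, the mean was at least 1 CPM, the genotypes did not overlap and the gene was called, together with listed developmental genes that start at a member, the nearest genes of the 10 regions of highest fold and the 3 widest, and the 5 genes with most members. All other genes (*Gimap8*, *Aox4*, those named from the adult and those within 10 kb) were chosen after their values were seen. Nothing states that replicates came from separate litters, so p-values measure only the spread between these libraries. Some items that the rules select are not reported here.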

Additional observations from a re-analysis of the deposited data

Results flagged for a closer look

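The effect of *Eed* loss differed between the organs for 5 of the 969 tested genes within 10 kb of an *Eed* KO-only region. This was by edgeR's test of the difference (intestine minus stomach, log2, adjusted p under 0.2). Over all tested genes it differed for 75 of 16218 (0.462%), so the 5 are no result about nearness to these regions. *Hoxc8* had a difference of -8.62 (adjusted p = 0.000524), *Hoxc9* of -9.47 (adjusted p = 0.00814) and *Hoxc10* of -8.65 (adjusted p = 0.0701). The control stomach held 0 to 2 counts of these genes, so the fitted sizes depend on the prior count. *Corin* had a difference of -2.06 (SE 0.38, adjusted p = 0.149), with the larger rise in the stomach. *Steap3*, a ferrireductase gene with a member 5899 bp from its start, had a difference of 1.49 (SE 0.25, adjusted p = 0.108). It was at 3.82 and 4.07 CPM in the control intestine against 14.5 and 11.0 in *Eed* KO, and at 13.3 and 15.5 against 15.5 and 17.6 in the stomach. Groups of 2 are too small to look for single libraries that stand apart.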

How the results depend on the processing

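Against 6769 members, 880 were left with Eed KO peaks at a -log10 q of at least 5 and 4285 with 50% overlap of both Eed KO peaks. The share at a gene start (4.68%) was 5.67% with all peaks at a -log10 q of at least 2, 6.82% with Eed KO peaks at 5, 3.91% within 500 bp, 15.4% within 5000 bp and 6.93% with GENCODE vM21 transcript starts, an alternative added after the data were seen. For genes with a member at the start (5 higher and 1 lower in the intestine, 4 and 2 in the stomach), these counts were 15, 2, 32 and 6 within 5000 bp, 9, 0, 8 and 1 at a -log10 q of 2, 1, 0, 0 and 0 at 5, 41, 0, 60 and 0 with spike-in scaling, and 1, 0, 1 and 0 with RUVg. In the stomach 2 were higher with 50% overlap and 7 without the filter. In the adult (9 higher and 4 lower) there were 58 and 21 within 5000 bp and 14 and 8 without the filter. Differences between organs (0) were 2 within 5000 bp and 1 without the filter. Within 10 kb (42 higher in the intestine, 83 in the stomach) 6 and 14 were higher with Eed KO peaks at 5, 810 and 911 with spike-in scaling, and 13 and 20 with RUVg, and in the intestine 75 without the filter. The RUVg factor separates the genotypes, as given with *Palm3*. The cause was not tested.

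Leaving out 1 library gave 0 to 2 and 0 to 1 at the start in the intestine, 2 to 3 and 0 to 0 in the stomach, 8 to 12 and 3 to 7 in the adult, 0 to 0 between organs, and within 10 kb 5 to 28 in the intestine and 28 to 58 in the stomach. A left-out fit leaves a group with 1 library, assumed to vary like the others. With the replicate block the counts at the start were 6, 1, 5 and 3, those in the adult 9 and 4, those within 10 kb 57 and 106, and 2 genes differed between organs (block within genotype). The deviations of same-numbered libraries correlated at 0.138 to 0.282 between genotypes and at 0.37 (control) and 0.748 (Eed KO) between organs, over 2 pairs. The study took both organs from each animal, but nothing states that a number marks an animal, and with 2 pairs the correlations do not settle it. Spike-in scaling turned *Cldn2* in the stomach to 0.68 (adjusted p = 0.425) and *Eed* in the stomach to 0.14 (adjusted p = 0.85). Of the other values for single genes, 103 kept their call, 37 lost it and 2 gained it. Peaks were called on pooled replicates, so no value of a region has an error, and near-identical copies limit what the strongest regions can show.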
